A study of Homo sapiens with 3 samples.

Results

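The integrin and laminin chain genes are the genes for the alpha and beta subunits of integrin receptors and for the alpha, beta and gamma chains of laminins. They were chosen by symbol alone, as every row of the deposited table named ITGA, ITGB, LAMA, LAMB or LAMC with its chain number or letter. The rule found 38 genes of 18674 with values in all 3 libraries (18 integrin alpha, 8 integrin beta and 12 laminin genes), listed as 65 RefSeq transcripts of 28848. RNA sequencing measured messenger RNA in A2780, an established cell line from an undifferentiated ovarian tumour. Cells with exogenous miR-181a gave 2 libraries, called pool 1 and pool 2 here, and cells with the empty pBABE retroviral vector gave 1 library. All 3 come from the same parental line, and no untransduced cells were analysed here. The labels describe the miR-181a cells as polyclonal pools in one place and as clones in another and do not say whether they were grown separately. A p-value here rests only on how far these 2 libraries differ, in the gene itself and in the other genes fitted with it. That spread may be technical. How much miR-181a each library held was not analysed here.

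Integrins are receptors made of an alpha and a beta subunit that span the plasma membrane and tie the extracellular matrix to the actin cytoskeleton. ITGB1 pairs with many alpha subunits to form receptors for collagen, laminin and fibronectin, and ITGAV pairs with several beta subunits, ITGB5 among them, to bind vitronectin and fibronectin. Laminins are secreted trimers of an alpha, a beta and a gamma chain that assemble into the basement membrane, and ITGA3, ITGA6 and ITGA7 pair with ITGB1 to bind them. In ovarian cancer these receptors are studied for the attachment of tumour cells to the peritoneal matrix.

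By its title, the series looked for transcripts targeted by miR-181a. A microRNA pairs with messenger RNAs mainly through its seed, bases 2 to 8, so the mature sequence from RefSeq (GRCh38.p14) is shown with the seed in capitals. The same 23 bases are encoded at chr1:198859108-198859130 on the minus strand and at chr9:124692480-124692502 on the plus strand.
hsa-miR-181a-5p: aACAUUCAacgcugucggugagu
The 3 prime UTR of 1 GENCODE transcript per gene (GRCh37) was searched on the sense strand for TGAATGT, the match to the seed, and for TGAATGTA, the same match followed by A, which contains it. Of the 38 genes 8 held TGAATGT (21.1%, against 20.7% of 12290 tested genes with a 3 prime UTR), and 3 of them held TGAATGTA (7.89%, against 6.71%). The sites of the 4 tested genes among them are shown with the match in capitals. They are letter matches and not measured binding sites. They lie at chr5:52249583-52249612, chr17:48167501-48167530, chr2:173370689-173370717 and chr1:183113413-183113441, in the order shown, all on the plus strand, and ITGA1 holds a further TGAATGT near the end of its UTR.
ITGA1: atagcaatgaaTGAATGTAtagtagctgca
ITGA3: ggagcgacactTGAATGTAgaataggcagg
ITGA6: taaaaaaaagaTGAATGTcctgaaaaggg
LAMC1: atatttttgtgTGAATGTtttgtgttttg

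The deposited value is the median read coverage over 50 bp windows along a transcript, so it is a level per length and can be compared between genes. No read counts come with it, so the depth is unknown. Coverage over all transcripts summed to 907092 in pool 1, 719263 in pool 2 and 798228 in the vector library, and 32.3%, 32.2% and 12.8% of transcripts were listed at 0. Of 8822 transcripts listed at 0 in both pools, 5549 (62.9%) were above 0 in the vector library. Fold changes are differences of log2(coverage + 1), the mean of the pools minus the vector library, a scale on which changes of weakly covered genes appear too small. The test was limma over 12552 genes whose mean coverage, taken over all libraries, exceeded 2.44, with Benjamini-Hochberg adjustment and a threshold of 0.05. It rests on 1 residual degree of freedom, and the spread of the vector condition, with a single library, is taken to equal that of the pools. Of the genes tested, 126 rose (1.00%) and 2725 fell (21.7%). Of the 38 integrin and laminin genes, 22 were tested, and none rose, with 2 of them higher at an unadjusted p under 0.05. Of these 22, 11 fell, and each of the 11 had a pool mean under 2.44 and so entered the test only through its vector value, which fixed its direction. Over all genes, 83.7% of those that fell entered in the same way. The account below therefore takes first the 10 tested members with a pool mean of at least 2.44.

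ITGB1, ITGAV, LAMC1 and LAMB2 carried most of the coverage in the cells with miR-181a. ITGB1, the common beta subunit (NM_033669, chr10:33176201-33294720 on GRCh37), had a coverage of 350.0 in pool 1 and 289.6 in pool 2, against 184 in the vector library. Its pool mean stood at percentile 98.8 of all genes. ITGAV (NM_001145000, chr2:187454737-187545628) had 199 and 157 in the pools, against 73.9 in the vector library. LAMC1, the gamma chain of most laminins (NM_002293, chr1:182992555-183114727), had 126 and 100.5 in the pools, against 52.7 in the vector library. Both pools lay above the vector library for each of these genes. LAMB2, a beta chain (NM_002292, chr3:49158547-49170551), had 126 and 93.7 in the pools, against 95.04 in the vector library, so the pools lay on both sides of it. LAMC1 and LAMB2 did not differ beyond the spread between the pools in their level, while ITGB1 and ITGAV stood above them in both pools.

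**Figure D1:**
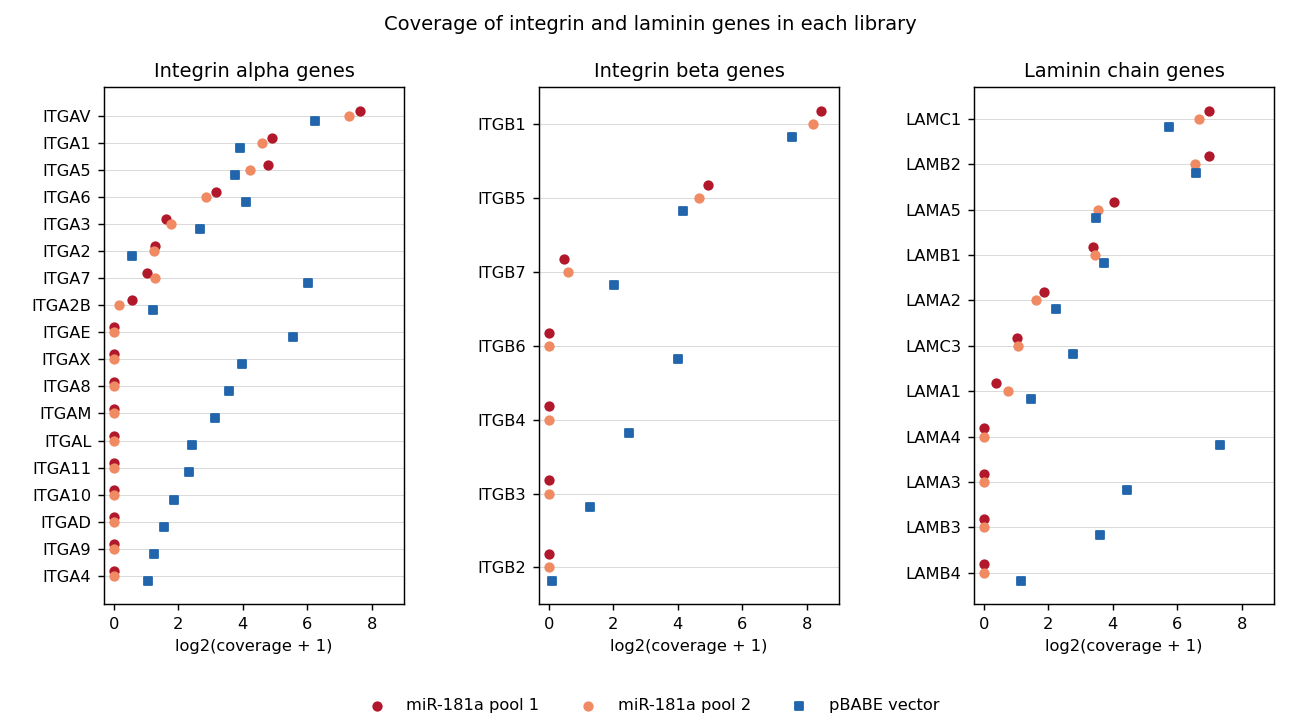
Coverage in each library of the 36 genes above 0 in at least 1 library, as log2(coverage + 1) of the transcript with the highest mean, with genes ordered by pool mean from the top. Circles are the miR-181a pools and squares the pBABE vector library (1 library each). ITGB1, ITGAV, LAMC1 and LAMB2 lead their panels, and 18 genes lie at 0 in both pools.

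A middle group followed far below ITGB1, and its order was the same in both pools. ITGB5, a beta partner of ITGAV (NM_002213), had 29.6 and 24.2 in the pools, against 17.1 in the vector library. ITGA1, a collagen receptor subunit (NM_181501), had 28.8 and 23.0 in the pools, against 14.2 in the vector library. ITGA5, the alpha subunit of the classical fibronectin receptor (NM_002205), had 26.7 and 17.8 in the pools, against 12.7 in the vector library. Their pool ranges overlapped, so their order by level is not settled, and in each of the 3 genes both pools were above the vector library. LAMA5, a laminin alpha chain found in many epithelial basement membranes (NM_005560), had 15.6 and 10.7 in the pools, against 10.1 in the vector library. LAMB1, the other main beta chain (NM_002291), had 9.52 and 9.92 in the pools, against 12.2 in the vector library. ITGA6, a laminin receptor subunit (NM_001079818), had 8.05 and 6.27 in the pools, against 16.0 in the vector library.

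None of these 10 genes rose or fell by limma. ITGAV was higher by 1.25 on the log2 scale (SE 0.26, limma adjusted p = 0.115), by 1.42 in pool 1 and by 1.07 in pool 2. It was the only member at least 1 log2 unit higher in both pools, as were 318 of the 12552 tested genes (2.53%). At a smaller threshold of 0.58 there were 4 tested members (13.8% of tested genes) and at 2 there were 0 (0.120%). LAMC1 was higher by 1.08 (SE 0.25, limma adjusted p = 0.133), with 1.24 in pool 1 and 0.92 in pool 2. ITGB1 had 0.79 (SE 0.24, limma adjusted p = 0.191), and ITGA1, ITGA5 and ITGB5 had 0.81, 0.74 and 0.62. LAMA5 and LAMB2 had 0.32 and 0.19, and LAMB1 and ITGA6 had -0.30 and -1.07. The highest of the adjusted p-values in this group was 0.683, for LAMB2, and ITGAV had the lowest. Of the 10 genes 7 were higher in both pools, as were 55.4% of the 10101 tested genes with a pool mean of at least 2.44, and their median log2 fold was 0.68, against 0.28. Of those 10101 genes 126 rose and 443 fell.

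These folds share an offset with genes that were well covered in the pools. Those genes were chosen by pool mean alone, a choice that tends to raise their ratio to the vector library. How much of the offset this choice makes was not tested. Among 2124 genes with a pool mean above 50, the median log2 ratio to the vector library was 0.65 in pool 1 (quartiles 0.40 and 0.90) and 0.30 in pool 2 (quartiles 0.04 and 0.57). With each pool shifted down by its median, ITGAV stood at 0.77 in both pools and LAMC1 at 0.59 in pool 1 and 0.62 in pool 2. ITGB1 stood at 0.27 and 0.35, ITGA1 at 0.32 and 0.36, ITGA5 at 0.37 and 0.16, and ITGB5 at 0.11 and 0.18. LAMB2 turned to -0.26 in pool 1 and -0.32 in pool 2 and LAMA5 to -0.08 and -0.23, and LAMB1 and ITGA6 were lower still. The offset differed with the pool mean. Among 6909 genes with a pool mean of 5 to 50, the median log2 fold was 0.41 in pool 1 and 0.05 in pool 2. The middle group belongs to that class, so the shift by genes above 50 places its members lower than their own class would. Against these medians LAMA5, with 0.57 and 0.07 before any shift, did not turn, and ITGA1, ITGA5 and ITGB5 lay above them in both pools. Because each pool has its own shift, their common difference no longer adds to the error term of the fit. In that fit ITGAV (limma adjusted p = 6.92e-05) and LAMC1 (limma adjusted p = 0.00279) rose, as did 685 of 12552 genes (5.46%). In the same fit ITGA6 (limma adjusted p = 1.07e-09), LAMB1 (limma adjusted p = 0.00261) and LAMA2 (limma adjusted p = 0.0356) fell beside the 11 members named later, as did 5809 genes (46.3%). LAMA2, like those 11, entered the test only through its vector value, which fixed its direction. With another transcript, given below, ITGA6 and LAMA2 were higher in both pools before any shift. Ratios as high as that of ITGAV in both pools were found in 1.65% of the 2124 genes, as high as that of LAMC1 in 3.67%, as high as that of ITGB1 in 14.3% and as high as that of LAMB2 in 70.3%.

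**Figure D2:**
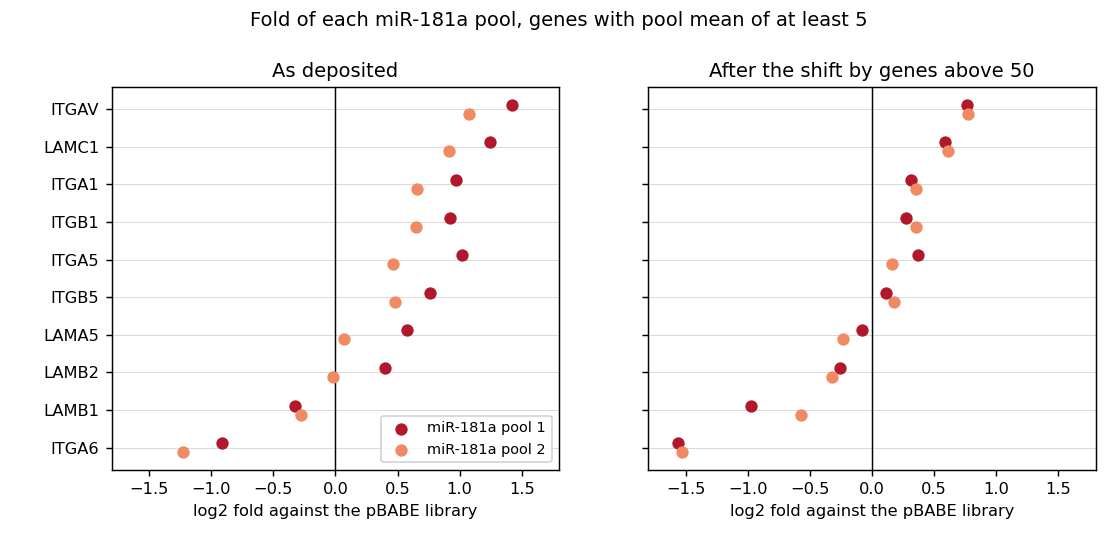
Log2 fold of each miR-181a pool against the pBABE library for the 10 genes with a pool mean of at least 5, as deposited (left) and after each pool was shifted by the median log2 ratio of genes with a pool mean above 50 (right). Each point is 1 library. ITGAV and LAMC1 stay to the right of 0 in both panels, and both pools of LAMB2 and LAMA5 lie left of 0 in the right panel.

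A scaling common to a whole library cancels in ratios between genes within it. The offset above differed between genes above 50 and genes of 5 to 50, so ratios between these classes, such as LAMC1 to LAMB1, ITGAV to ITGB5 and LAMA5 to LAMC1, still carry that difference. LAMC1 to LAMB2 was 1.01 in pool 1 and 1.07 in pool 2, against 0.555 in the vector library. LAMC1 to LAMB1 was 13.3 and 10.1 in the pools, against 4.33 in the vector library. The gamma chain was higher relative to both beta chains in each pool. ITGAV to ITGB1 was 0.57 and 0.541 in the pools, against 0.401 in the vector library, and ITGAV to ITGB5 was 6.73 and 6.47, against 4.33. ITGA1 to ITGB1 was 0.0824 and 0.0795 in the pools, against 0.0774 in the vector library, and ITGB5 to ITGB1 was 0.0846 and 0.0836, against 0.0927. ITGA5 to ITGB1 was 0.0764 and 0.0614 in the pools, so the vector value of 0.0688 lay between them. These ratios take the ITGB1 transcript with the highest vector value, 184. Another ITGB1 transcript, with the same pool values, had 162 in the vector library. With it the vector ratios of ITGA1 and ITGA5 to ITGB1 lie above those of both pools, so their directions depend on the transcript. LAMA5 to LAMC1 was 0.123 and 0.106 in the pools, against 0.192 in the vector library, while LAMA5 to LAMB2 went the other way, with 0.124 and 0.114, against 0.107. ITGA6 to ITGB1 was 0.023 and 0.0216 in the pools, against 0.0871 in the vector library, with the ITGA6 transcript of the highest mean. The other ITGA6 transcript had a coverage of 7.17 and 5.835 in the pools, against 4.46 in the vector library. The difference in the ITGA6 to ITGB1 ratio therefore depends on the transcript. These ratios were not tested.

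Within each chain family a single gene held most of the coverage in the pools. ITGAV was 74.4% and 74.9% of the summed alpha subunit coverage in the pools, against 26.1% in the vector library. ITGB1 was 92.1% of the summed beta subunit coverage in both pools, against 81.7% in the vector library. LAMB2 was 92.9% and 90.4% of the laminin beta coverage in the pools, against 79.5% in the vector library. LAMC1 was 99.2% and 98.9% of the laminin gamma coverage in the pools, against 90% in the vector library. Among laminin alpha chains LAMA5 was 84.1% and 79.4% of the coverage in the pools, against 5.19% in the vector library, where LAMA4 was 81.4% and LAMA3 10.6%. The summed laminin alpha coverage was 18.5 and 13.4 in the pools, against 195 in the vector library. The vector shares of ITGA7 (22.8%), ITGAE (16.2%), LAMA4 and LAMA3 come from genes near or at 0 in the pools. Those of ITGA7 and LAMA3 rest on a single transcript each. In the vector library the other ITGA7 transcripts were at most 4.71 and the other LAMA3 transcripts at 0. The vector shares, that of ITGAV among them, therefore depend on the transcript taken.

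Of the 11 members that fell, ITGA3, ITGA7 and LAMC3 were above 0 in the pools. ITGA3 (NM_002204, chr17:48133332-48167845) had a coverage of 2.09 and 2.45 in the pools, against 5.36 in the vector library, and fell by 0.96 on the log2 scale (SE 0.09, limma adjusted p = 0.033). LAMC3, a gamma chain of restricted expression (NM_006059, chr9:133884561-133969860), had 1.06 and 1.08 in the pools, against 5.86 in the vector library, and fell by 1.73 (SE 0.01, limma adjusted p = 0.000149). ITGA7, a laminin receptor subunit best known in muscle (NM_001144996, chr12:56078352-56110188), had 1.03 and 1.42 in the pools, against 64.5 in the vector library, and fell by 4.88 (SE 0.20, limma adjusted p = 0.00596). In each of the 3 genes both pools were below the vector library. The filter fixed the direction of all 3, so nothing is read from these calls. With members at 0 included, 10 tested members were lower in both pools by 1 log2 unit or more (27.3% of tested genes), 12 at least 0.58 lower (31.7%) and 9 at least 2 lower (21.0%). Among 5964 transcripts with a pool mean of 1 to 10, a ratio of vector to pool mean as high as that of ITGA3 was found in 23.9%, as high as that of LAMC3 in 10.0%, and as high as that of ITGA7 in 0.604%. For the other ITGA7 transcripts, NM_002206 and NM_001144997, the shares were 14.8% and 37%. LAMA2, a laminin alpha chain of muscle and nerve (NM_000426), also entered the test through its vector value and did not pass, with 2.65 and 2.07 in the pools, against 3.74 in the vector library (limma adjusted p = 0.18).

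**Figure D3:**
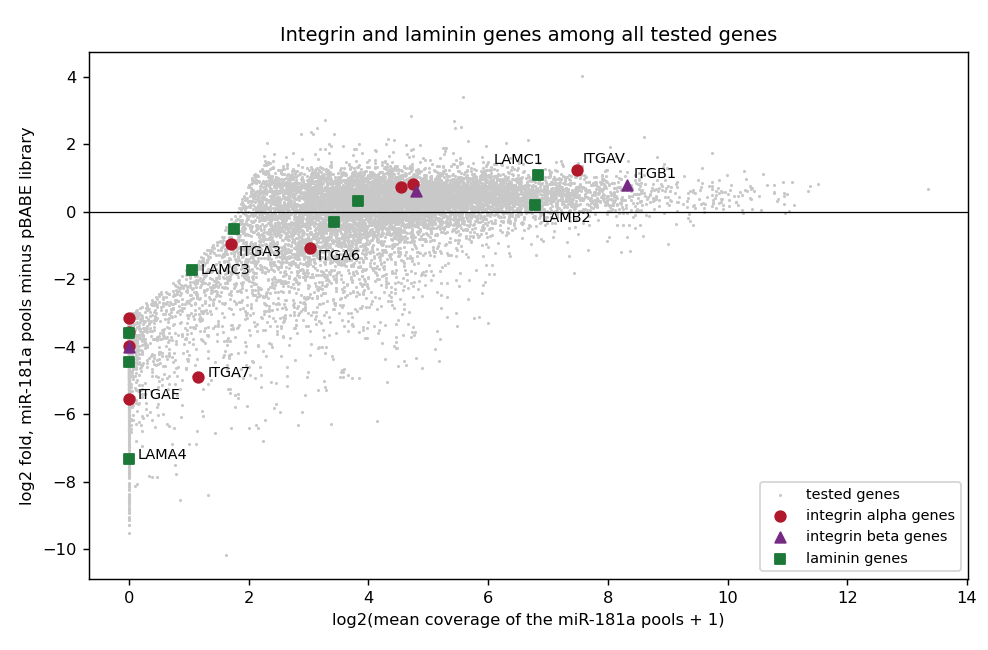
Log2 fold (miR-181a pools minus pBABE library) against the mean coverage of the pools, as log2(mean + 1), for the 12552 tested genes in grey and the 22 tested integrin and laminin genes in colour. The members on the left edge and along the slanted border of the grey points, LAMC3 and ITGA3 among them, were kept in the test by their vector value alone, while ITGAV, LAMC1, ITGB1 and LAMB2 lie in the well-covered part.

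The transcripts of a gene share most of their exons, and their values were alike in the pools but less so in the vector library. Over 3722 genes with at least 2 transcripts that had a coverage of 1 or more in both pools and a vector value above 0, the highest transcript was at least 2 times the lowest in 4.78% of genes in pool 1 and 4.92% in pool 2, against 27.2% in the vector library. Of the 6 members among these genes, none in the pools and 3 in the vector library were at that ratio. The 3 transcripts of ITGA7 were all at 1.03 in pool 1 and lay between 1.14 and 1.42 in pool 2, against 1.57, 4.71 and 64.5 in the vector library, and with NM_001144997 its log2 folds were -0.34 and -0.26. ITGA6 had a second transcript (NM_000210) at 7.17 and 5.83 in the pools, against 4.46 in the vector library. The direction of ITGA6 therefore depended on the transcript, with log2 folds of 0.58 and 0.32 for NM_000210 and -0.91 and -1.23 for NM_001079818. LAMA2 turned likewise, to 0.53 and 0.28 with NM_001079823. ITGB1 and ITGAV did not turn. The 6 transcripts of ITGB1 lay at 337 to 350.0 in pool 1 and 285 to 289.6 in pool 2, against 155 to 184 in the vector library. The 3 transcripts of ITGAV lay at 189 to 199 and 142 to 157 in the pools, against 71.6 to 73.9 in the vector library, which gives log2 folds of 1.36 to 1.42 in pool 1 and 0.96 to 1.07 in pool 2.

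**Figure D4:**
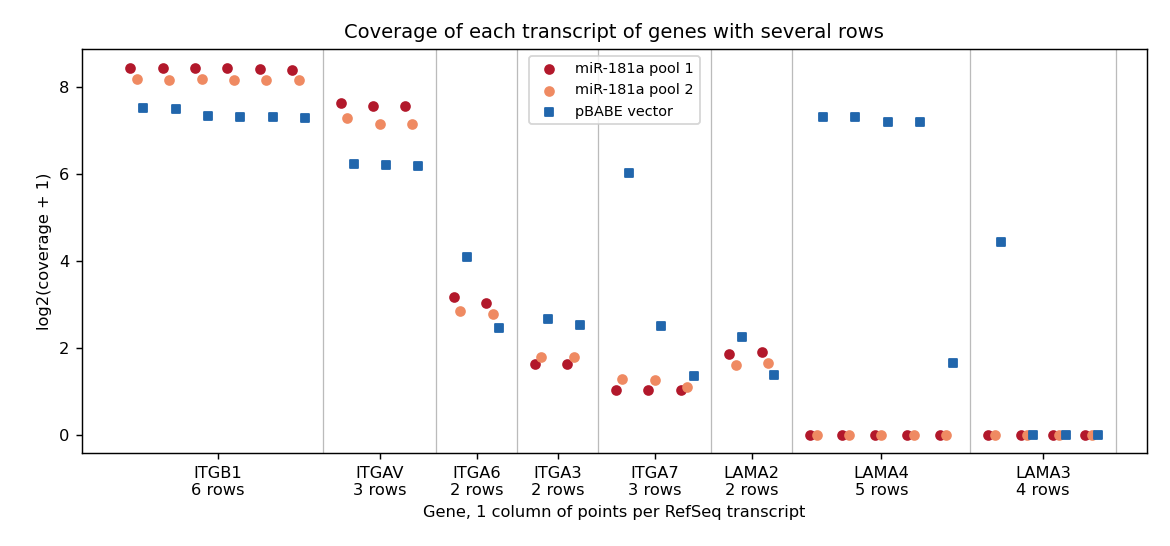
Coverage of every RefSeq transcript of 8 members, as log2(coverage + 1), with transcripts of a gene ordered by their vector value. Circles are the miR-181a pools and squares the pBABE vector library. The vector values of ITGA7 spread from 1.57 to 64.5 while its pool values stay between 1.03 and 1.42, and the 6 ITGB1 transcripts keep both pools above the vector library.

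In all, 20 members were listed at 0 in both pools, 18 of them with a vector value above 0, and ITGB8 was at 0 in all 3 libraries. A median over windows is 0 when most windows hold no read, so a listed 0 does not show that reads were absent. LAMA4, the alpha chain of endothelial and mesenchymal laminins, had the highest vector value among these 18, 159, and 4 of its 5 transcripts lay between 147 and 159 while the fifth was at 2.13. A vector value of at least 159 was found in 0.748% of all transcripts listed at 0 in both pools. ITGAE, which with ITGB7 binds E-cadherin on lymphocytes, followed at 46.0, a level found in 3.02% of such transcripts. LAMA3, an alpha chain of epithelial laminin, had 20.7 in 1 of its 4 transcripts and 0 in the other three. ITGB6, an epithelial partner of ITGAV, had 15.0, the leukocyte subunit ITGAX had 14.7, and LAMB3, a beta chain of epithelial laminin, had 11.1 in all 3 transcripts. ITGA8, a partner of ITGB1 in kidney development, had 10.9, and ITGAM, a leukocyte subunit, had 7.89 in 1 transcript and 0 in the other. These 8 genes are those at 0 in both pools that entered the test, and all 8 fell. Both pools are listed at 0 there, so these genes show no spread of their own. Their SE, 0.001 to 0.067 on the log2 scale, comes from the spread fitted over genes of similar level and does not measure their precision. The 10 others were not tested, and their vector values ran from 0.084 for ITGB2, the beta subunit of leukocyte integrins, to 4.67 for ITGB4, the beta subunit of hemidesmosomes. Of the 35 member transcripts at 0 in both pools, 26 (74.3%) were above 0 in the vector library, against 62.9% of all such transcripts. Their median vector value was 2.64, against 1.15.

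Among members that were not tested, ITGA2, a collagen receptor subunit, had 1.41 and 1.38 in the pools, against 0.472 in the vector library, and ITGA2B, the platelet subunit, had 0.47 and 0.133, against 1.33. ITGB7 had 0.38 and 0.517 in the pools, against 3.07 in the vector library, but 52.4% of its transcript overlaps exons of ZNF740 on the opposite strand, and the strand of counting is not stated, so their reads cannot be told apart. The same holds for 41.5% of the ITGA4 transcript, which overlaps CERKL on the opposite strand, while 20.8% of the ITGB6 transcript overlaps a noncoding RNA on its own strand. LAMA1 had 0.292 and 0.697 in the pools, against 1.75 in the vector library. The 8 leukocyte markers summed to 7.21 and 5.86 in the pools, against 44.4 in the vector library, and 5 of them were at 0 in both pools, PTPRC (5.78 in the vector library) among them, with LCP1 at 0 in all 3 libraries. The 5 platelet markers summed to 2.24 and 1.33 in the pools, against 70.5 in the vector library, and the 5 endothelial markers to 0 and 0.037, against 222, with 4 of each list at 0 in both pools. The 4 muscle markers summed to 67.1 and 56.9, against 78.6, with 3 of them at 0 in both pools and MYOD1 at 0 in all 3 libraries. The 6 epithelial markers summed to 17.6 and 16.6, against 125, with 3 at 0 in both pools and CDH1, the gene of E-cadherin, at 0 in all 3 libraries. The part of these markers in the values of ITGAX, ITGAM, ITGAE, ITGA2B, ITGA7, LAMA2, LAMA4, LAMB3 and ITGB6 was not tested. The labels name no cells other than A2780, so the markers are not read as numbers of other cells. Where these marker values come from was not tested. The 6 fibroblast markers summed to 1600 and 1250 in the pools, against 491, a sum carried by COL3A1 and DCN. COL3A1 had 986 and 717 in the pools, against 249 in the vector library (limma adjusted p = 0.11), and DCN had 479.6 and 420.3, against 144 (limma adjusted p = 0.0576). COL1A1 went the other way, with 0 and 0.706 in the pools, against 7.41, the pools lay on both sides of the vector value of PDGFRA, with 46.2 and 39.8, against 42.6, and none of the 5 tested markers passed.

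Of the 4 tested members with a TGAATGT match, ITGA1, with TGAATGTA, and LAMC1 were higher in both pools, with log2 folds of 0.81 and 1.08. ITGA6 was lower with 1 transcript and higher with the other. ITGA3, with TGAATGTA, fell by 0.96 on the log2 scale. It entered the test only through its vector value, which fixed that direction, so nothing is read from its fall. ITGAV, ITGB1, ITGB5, ITGA5, LAMB2, LAMB1 and LAMA5 held no match in the UTR searched. Among genes with a pool mean above 50, the median log2 fold was 0.48 in 88 genes with TGAATGTA, 0.52 in 224 with TGAATGT and no TGAATGTA, and 0.47 in 1784 with neither.

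Genes that work with these receptors were read as lists of adhesion adaptors, ligands, basement membrane partners, other laminin receptors, membrane partners, trafficking factors and processing proteases. Of 152 measured partner genes 115 were tested, and none rose and 23 fell (20%, against 21.7% of all tested genes). Partners with a pool mean under 2.44, those at 0 in both pools among them, entered the test only through their vector value, which fixed their direction. How many of the 23 these were was not counted. Each partner is given by its transcript of the highest mean over the 3 libraries, SRC, EDIL3 and CD47 among them. Values of other partner transcripts are not given. With the transcript of the highest pool mean 16 partner genes fell, as did 2319 of 12326 tested genes. Of 37 adaptors and kinases tested 9 fell, 6 of them at 0 in both pools, and the list median was 0.00, against 0.07 over all tested genes. VCL, which couples integrin adhesions to actin, had 239 and 172 in the pools, against 110 in the vector library, and did not pass (limma adjusted p = 0.227). RSU1 and ACTN4 did not pass either, with log2 folds of 0.58 and 0.49. The tyrosine kinase SRC fell, with 7.77 and 8.87 in the pools, against 44.6 in the vector library (log2 fold -2.29, SE 0.29, limma adjusted p = 0.0497). TGFB1I1 and LIMS2, LIM domain proteins of adhesions, were at 0 in both pools with vector values of 69.8 and 63.3.

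Of 16 extracellular ligands tested 7 fell, 4 of them at 0 in both pools, where 21.7% of all tested genes fell. The list median was -1.69, against 0.07 over all tested genes, and -0.83 over the 12 ligands above 0 in a pool. EDIL3, an RGD protein bound by ITGAV receptors, fell, with 39.4 and 29.8 in the pools, against 410 in the vector library (log2 fold -3.54, SE 0.28, limma adjusted p = 0.0223). IBSP, the bone sialoprotein, was at 0 in both pools and 273 in the vector library. LRRC33, a membrane protein that tethers latent TGF-beta, had 0 and 0.318 in the pools, against 19.6, and fell (limma adjusted p = 0.0114). That vector value alone kept LRRC33 in the test, so nothing is read from its fall. POSTN, ADAM15 and ADAM9 did not pass, with log2 folds of -0.15, 0.54 and 0.95. Of 10 basement membrane partners tested COL4A2 and FRAS1 fell, both at 0 in the pools. The list median was -0.37, and 0.29 over the 8 above 0 in a pool. SPARC, a collagen-binding matrix protein, had 68.7 and 62.0 in the pools, against 25.5 in the vector library (log2 fold 1.32, limma adjusted p = 0.0674), while AGRN, a laminin-binding proteoglycan, had 28.8 and 17.4, against 66.5, and neither passed. FREM2 had a log2 fold of 0.16.

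Of 14 other laminin receptors and their glycosylating enzymes tested 1 fell, LARGE, at 0 in both pools, and the list median was 0.56. DAG1, dystroglycan, had 101 and 93.8 in the pools, against 63.7 in the vector library, and did not pass (limma adjusted p = 0.179), nor did RPSA and SDC1, with log2 folds of 0.76 and 0.65. Of 13 membrane partners tested CD47 and MDGA1 fell, with a list median of 0.57. CD47, which associates with ITGAV receptors, had 23.3 and 17.8 in the pools, against 152 in the vector library (log2 fold -2.84, SE 0.28, limma adjusted p = 0.0336), and MDGA1 was at 0 in both pools. The integrin partners BSG, CD63 and CD151 did not pass, with log2 folds of 0.41, 0.57 and 0.27. Of 17 trafficking genes none rose or fell, with a list median of 0.34, and RAB7A, AP2M1 and CLTC, which act in endocytosis and lysosomal delivery, had log2 folds of 0.69, 0.72 and 0.65. Of 8 proteases tested MMP14 and PLAT fell, with a list median of -0.63, and -0.60 over the 7 above 0 in a pool. MMP14, which cleaves laminin and collagen at the cell surface, had 1.22 and 0.699 in the pools, against 11.1 in the vector library (limma adjusted p = 0.0252), and PLAT was at 0 in both pools and 10.3 in the vector library. Both entered the test only through their vector values, so nothing is read from these calls. The calpain CAPN2, which cleaves adhesion proteins, had 70.5 and 54.2 in the pools, against 22.7 in the vector library, and did not pass (log2 fold 1.41, limma adjusted p = 0.108). CAPN1, another calpain, and FURIN, which cleaves ITGAV and ITGA6 precursors, did not pass either, with log2 folds of 0.43 and -0.60.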

How the data were processed

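RNA from 3 A2780 libraries was enriched with oligo(dT) beads and sequenced in 100 nt reads. Per the labels' protocols, reads were aligned to hg19 and the authors deposited a coverage signal for each RefSeq transcript, the median over 50 bp sliding windows. The protocols mention log transformation with quantile normalization, yet the deposited signal is linear and its quantiles differ between libraries (medians 5.76 and 4.50 in the pools and 8.74 in the vector library), so no common scaling was assumed. The sources used here name no aligner and no annotation release. The 308 rows with a blank vector value, none of them a member, were left out, and symbols read as dates were restored by accession. Each gene was taken as the transcript with the highest mean over the 3 libraries. Genes above the lowest 25% of means not at 0 were fitted with limma 3.58.1 in R 4.3.3 (eBayes with a variance trend) on log2(coverage + 1). The fit was tested on simulated data that gave all 3 libraries the same spread. That check therefore says nothing on the spread of the vector library. Of 12552 tested genes 12341 were matched to a GENCODE transcript, and 12290 had a 3 prime UTR to search. Members have a value or a count in the text, apart from items not reported here, and of each partner list the text gives genes that rose, and up to 3 that fell and 3 that did not pass, those of highest coverage. Members and lists were chosen with earlier results of these data known. Alternatives covered the filter, pseudocount, scaling, transcript, variance trend, size threshold and each pool left out.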

Additional observations from a re-analysis of the deposited data

How the results depend on the processing

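The counts of members called changed with the filter, the scaling and the transcript taken. With the transcript of the highest pool mean 19 members were tested and none rose. In that setting 5 integrin alpha, 1 integrin beta and 3 laminin genes fell, as did 16 partner genes and 2319 of 12326 tested genes. For integrin alpha genes, 0 rose and 6 fell as reported, against 1 and 11 with no filter, 1 and 3 with a filter at the median, 1 and 2 among genes above 0 in both pools, 1 and 7 after the shift by genes above 50, and 3 and 6 with library medians set equal. For integrin beta genes, 0 rose and 1 fell, against 0 and 5 with no filter, 0 and 0 with a filter at the median or above 0 in both pools, and 2 and 1 with medians equal. For laminin genes, 0 rose and 4 fell, against 1 and 1 with a filter at the median, 0 and 1 above 0 in both pools, 1 and 6 after the shift, and 3 and 4 with medians equal. For partner genes, 0 rose and 23 fell, against 1 and 40 with no filter, 4 and 14 with a filter at the median, 5 and 13 above 0 in both pools, 9 and 53 after the shift, and 62 and 37 with medians equal. Members tested numbered 22 as reported, 36 with no filter, 13 with a filter at the median and 14 above 0 in both pools. Over all genes, 126 rose and 2725 fell of 12552 as reported, and 278 and 5626 of 16737 with no filter. With a filter at the median they were 402 and 1476 of 8368, and above 0 in both pools 447 and 1823 of 10818. After the shift they were 685 and 5809 of 12552. Members at least 1 log2 unit higher in both pools numbered 1, against 0 with a pseudocount of 10 or after the shift, 6 with medians equal, 4 at a threshold of 0.58 and 0 at a threshold of 2. In every transcript, an alternative chosen after seeing the data, it was 0, and with a pool left out 1 to 3. Lower members numbered 10, against 20 with no filter, 3 with a filter at the median, 2 above 0 in both pools and 11 with either pool left out. In every transcript the lower members numbered 7. The log2 folds of LAMA5 and LAMB2 turned to -0.16 and -0.29 after the shift by genes above 50, and that of LAMB1 to 0.12 with medians equal, where over all genes 6355 rose and 3701 fell. ITGAV passed in 4 of 10 alternatives with a test (limma adjusted p from 6.17e-20 to 0.147) and LAMC1 in 3 (1.37e-15 to 0.16). ITGA3 passed in 6 of 9 (0.000602 to 0.174), ITGA7 in all 10 and LAMC3 in all 9 that kept it. The pool means of ITGA3, ITGA7 and LAMC3 were under 2.44, so in filtered alternatives their vector values kept them in the test. Nothing is read from how often these genes passed. The causes of the changes between alternatives were not tested. With a pool left out no test can be made, because no residual degree of freedom is left. No paired analysis was possible because the vector group has 1 library. Depth limits the low genes, since no counts are given.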
